A study of Arabidopsis thaliana with 6 samples.

Results

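SWEET proteins are sugar uniporters, membrane proteins that let sugars move down their concentration gradient across the plasma membrane or the membrane of the vacuole. In Arabidopsis thaliana the family falls into 4 clades. Clade I (SWEET1 to SWEET3) and clade II (SWEET4 to SWEET8) are known mainly for hexose transport, clade III for sucrose and clade IV for fructose at the vacuole. The probe sets described here were chosen by gene symbol: those that the ATH1 array annotation ties to exactly 1 gene named SWEET1 to SWEET8. There were 7 such probe sets among the 22746 in the table, 3 of clade I (SWEET1, SWEET2 and SWEET3) and 4 of clade II (SWEET4, SWEET6, SWEET7 and SWEET8). SWEET5 is listed under its other name, AtVEX1. It was measured, but it is not one of the 7 and its values are given beside them.

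The 6 arrays carry total RNA of plants of the Columbia-0 ecotype at 8 days, 3 of the lib mutant and 3 of the wild type, which the labels call biological replicates. All plants grew untreated on vertical agar plates of half-strength medium with sucrose, so both genotypes had sugar in the medium. The title of the series places lib in the setting of a partial lack of isoleucine. The labels do not name the mutated gene, and OMR1, the threonine deaminase of isoleucine synthesis, has 0 probe sets of its own in the annotation, so no check of the mutant by a targeted gene was made. Whether separate plantings lie behind the replicates is not stated, so p-values measure the spread between these arrays.

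The values are signals of MAS5, the Affymetrix method that condenses the probes of a probe set into 1 number per array, on the log2 scale. Array medians ran from 7.40 to 7.52, and 405 to 734 probe sets per array stood at the floor of the scale, a log2 of 0 or a signal of 1. The tissue is given in 2 ways, as whole seedlings for the samples and as roots in the design of the series. Both kinds of marker gene gave signal. Of 4 measured shoot markers 2 were lower in lib, LHCB4.1 and RCA, each at a log2 difference of -0.62, and of 3 measured root markers 1 was lower, PYK10 at -0.47, while EXPA7 at 0.20 and EXPA18 at -0.0041 did not pass; over all probe sets 10.3% were called lower. The summed signal of the shoot markers was 1092 to 1492 on lib arrays and 1658 to 2636 on wild type arrays, and that of the root markers was 13542 to 15628 on lib arrays and 17811 to 21898 on wild type arrays, with 0 markers at the floor of the scale on any array. The shoot markers PRK at -0.70 and SBPASE at -0.28 did not pass, and their groups overlapped. PYK10 alone made up most of the root sum, at 11847 to 14025 on lib arrays and 16373 to 20685 on wild type arrays. LHCB4.1 made up most of the shoot sum, at 730 to 981 on lib arrays and 1054 to 1718 on wild type arrays. Each sum therefore mainly follows a single gene. The part of these shifts in the results below was not tested, and in such samples fewer cells of a type and less RNA per cell cannot be told apart. Markers of phloem companion cells and of pollen had no probe set with 1 gene and were not used here.

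The 7 probe sets fell into 3 kinds. SWEET2 was 4.41-fold lower in lib, SWEET3 was lower by a smaller amount that did not pass the test, and SWEET1 and the clade II genes showed no difference beyond their spread. With limma's moderated test, adjusted over all 22746 probe sets by the Benjamini-Hochberg method and called at an adjusted p under 0.05, 1 of the 7 was called lower and 0 higher. Over the whole array 20.7% of probe sets were called, 10.3% lower and 10.4% higher in lib, so a count of 1 in 7 is near the background. The median log2 difference, lib minus wild type, was -0.67 over the 7 and -0.04 over all probe sets. The median of the 7 is the value of SWEET3 itself, and most of the other values come from clade II probe sets of low signal and wide scatter. It therefore does not show a fall of the group.

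**Figure D1:**
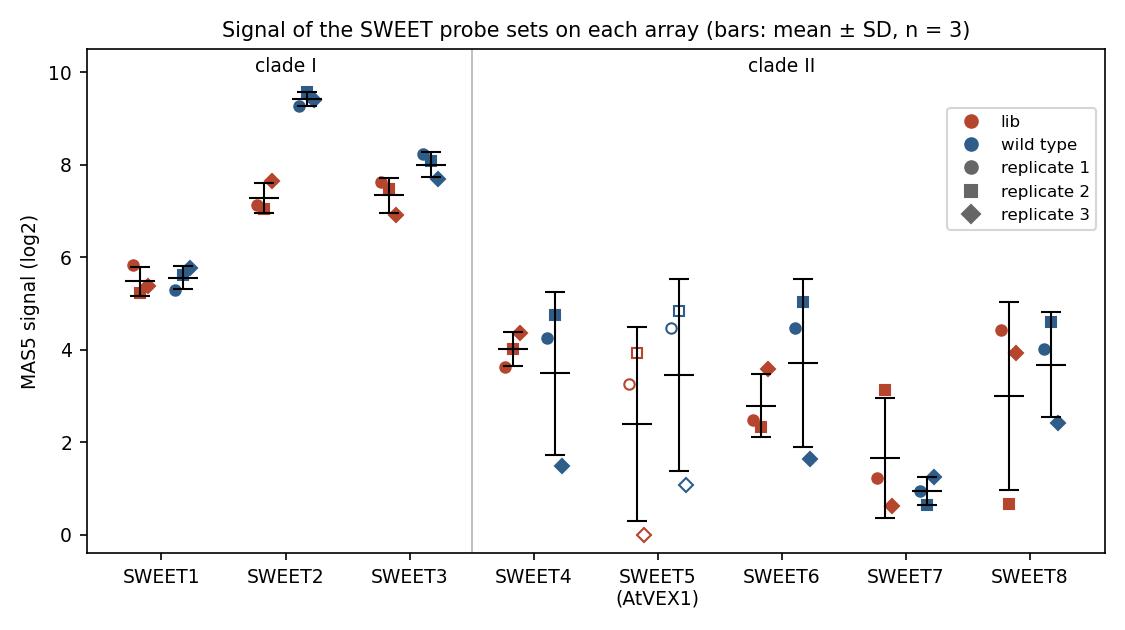
MAS5 signal (log2) of each SWEET probe set on each array, lib (red) left of wild type (blue), with the mean and SD of 3 arrays and a marker shape for each replicate. SWEET5, listed as AtVEX1, is drawn with open symbols. The genotypes are apart for SWEET2 and SWEET3 and overlap for the others, and 4 of the 5 clade II probe sets are lowest in the wild type on replicate 3.

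SWEET2 (AT3G14770) encodes a clade I transporter of the vacuolar membrane that is known from roots, where it limits the loss of sugar to the surrounding soil. Its signal was 141, 132 and 200.3 on lib arrays 1 to 3, against 618, 761 and 679 on wild type arrays 1 to 3. All lib arrays lay far below all wild type arrays, and the gap between the groups was larger than the range within either. The mean log2 signal was 7.28 ± 0.32 in lib and 9.42 ± 0.15 in the wild type (SD, n = 3 each). SWEET2 thus fell by 2.14 on the log2 scale (SE 0.17, 95% interval -2.53 to -1.75, limma adjusted p = 0.00015), to 22.7% of the wild type level with an interval of 0.173 to 0.297 for the ratio. By p it ranked 72 among all probe sets, and it held rank 104 among the 568 probe sets (2.5% of all) called lower in lib by at least 2-fold, counted from the largest fall.

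The exact permutation test on the 6 arrays gave p = 0.1 for SWEET2, two-sided, which is the smallest value that 3 arrays against 3 allow. In the authors' deposited table SWEET2 has a ratio of lib to wild type of 0.230 and an unadjusted p of 0.00241. An unequal-variance comparison of single probe sets, the kind behind that table, gave SWEET2 an adjusted p of 0.0763, above the threshold. With each array left out in turn the log2 difference stayed between -2.32 and -2.03. The lowest of these values came without lib replicate 3, the lib array with the highest SWEET2 signal and the lowest array weight of the 6 (0.507).

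SWEET3 (AT5G53190), a clade I member with a less defined role, had signals of 197, 179 and 120.3 on lib arrays 1 to 3, against 299.7, 271 and 208 on wild type arrays 1 to 3. The genotypes did not overlap, as for 38.1% of all probe sets, but the highest lib array and the lowest wild type array lay close together. The mean log2 signal was 7.34 ± 0.38 in lib and 8.00 ± 0.27 in the wild type (SD, n = 3 each). The log2 difference was -0.67 (SE 0.22, 95% interval -1.16 to -0.17) with an unadjusted p of 0.0139 and a limma adjusted p of 0.0617, so SWEET3 did not pass. In a fit restricted to probe sets whose mean signal exceeded the array-wide median the same difference passed (adjusted p = 0.0255). In the authors' deposited table SWEET3 has a ratio of 0.636 and a p of 0.0739. Lib replicate 3 was the lowest lib array for SWEET3 and the highest for SWEET2. Without it the log2 difference of SWEET3 was -0.45 (adjusted p = 0.15).

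SWEET1 (AT1G21460) encodes a glucose transporter of the plasma membrane. Its signal was 56.9, 37.6 and 41.7 on lib arrays 1 to 3, against 39.0, 49.1 and 54.5 on wild type arrays 1 to 3. The genotypes overlapped across most of their range. The log2 difference was -0.08 (SE 0.32, limma adjusted p = 0.906), and its 95% interval of -0.79 to 0.64 leaves room for ratios of lib to wild type between 0.579 and 1.56. At this scatter a difference would have had to reach 1.02 on the log2 scale to be called, so smaller differences of SWEET1 were not detectable with 3 arrays per genotype.

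**Figure D2:**
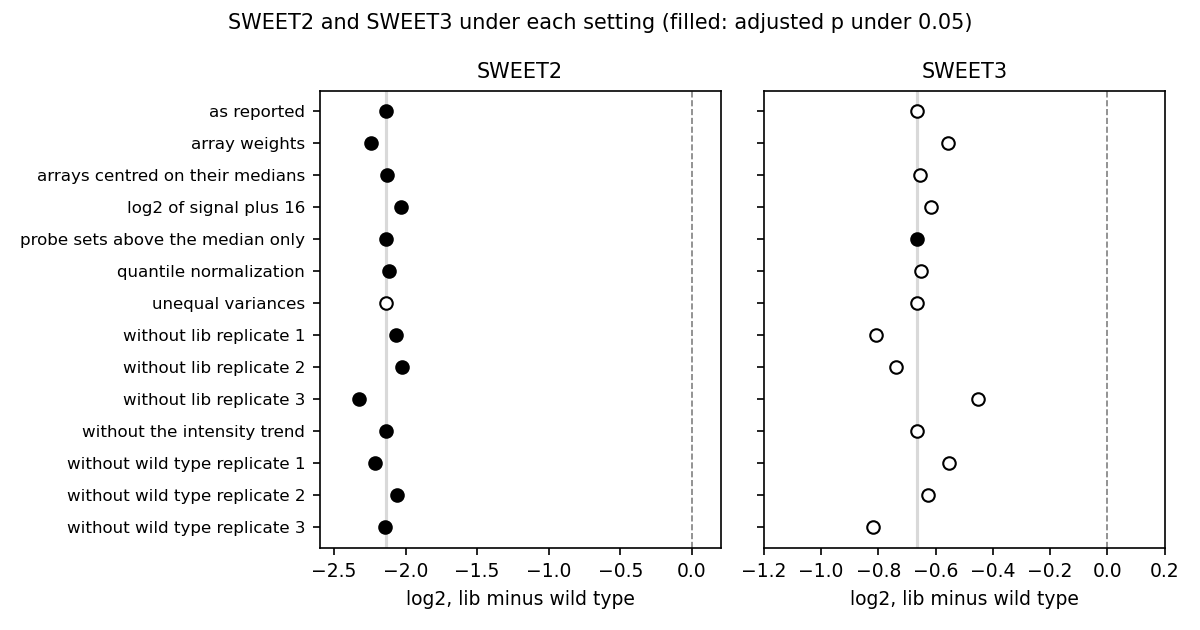
Log2 difference, lib minus wild type, of SWEET2 (left) and SWEET3 (right) under the reported setting and under other settings, one row each, filled where the adjusted p was under 0.05. The grey line marks the reported value. SWEET2 lies between -2.32 and -2.03 and SWEET3 between -0.82 and -0.45.

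The unlike behaviour of the clade I genes was then set out within each array, as the log2 signal of SWEET2 minus that of another gene. Such a difference shows unequal change and not which gene moved. Its size is not a ratio of transcript levels because probe sets differ in brightness. Its mean shift between genotypes follows from the log2 differences of both genes, so it is not separate evidence. SWEET2 minus SWEET1 was 1.31, 1.82 and 2.26 on lib arrays 1 to 3, against 3.99, 3.96 and 3.64 on wild type arrays 1 to 3, a shift of -2.06. SWEET2 minus SWEET3 averaged -0.06 ± 0.69 in lib and 1.41 ± 0.34 in the wild type (SD, n = 3 each), a shift of -1.47. For both pairs the genotypes did not overlap. The exact permutation p was 0.1 for each, the smallest the design allows, and 0.133 after adjustment over the 4 pairs compared, so neither shift passes a threshold of 0.05.

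The other 2 pairs set SWEET2 against the clade IV genes SWEET16 and SWEET17, fructose transporters of the vacuolar membrane. SWEET16 fell, with a log2 difference of -1.31 (SE 0.17, adjusted p = 0.00107), whereas SWEET17 stood at -0.22 (SE 0.11, adjusted p = 0.219). SWEET2 minus SWEET17 was -3.19 ± 0.26 in lib and -1.26 ± 0.11 in the wild type (SD, n = 3 each), a shift of -1.92 without overlap (exact permutation p = 0.1, 0.133 adjusted). SWEET2 minus SWEET16 shifted by -0.83, and there the genotypes overlapped (exact permutation p = 0.2, adjusted p = 0.2). The limma intervals of the log2 differences, -2.53 to -1.75 for SWEET2 and -1.69 to -0.92 for SWEET16, did not overlap. Such separate intervals do not test the difference between genes read on the same arrays. The permutation test cannot pass 0.05 with 3 arrays per genotype, and for this pair the scatter also kept it from its smallest p. Whether SWEET2 fell more than SWEET16 was not settled.

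**Figure D3:**
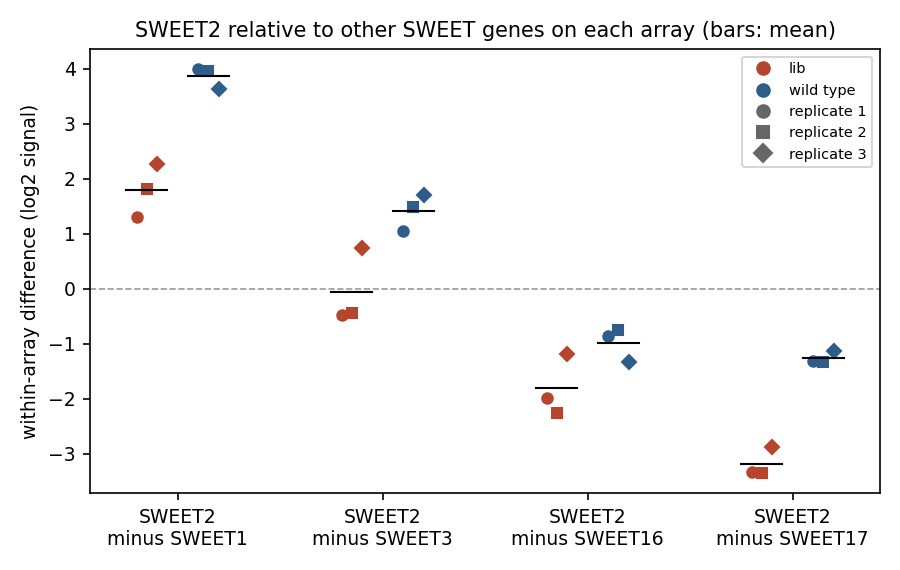
Log2 signal of SWEET2 minus that of SWEET1, SWEET3, SWEET16 or SWEET17 on each array, lib (red) left of wild type (blue), with a bar at the mean of 3 arrays. The groups are apart for SWEET1, SWEET3 and SWEET17, with shifts of -2.06, -1.47 and -1.92, and overlap for SWEET16.

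The clade II probe sets had low signals with wide scatter. Over all probe sets the median SD within a genotype was 0.24 on the log2 scale, and over those with a mean log2 signal under 5 it was 1.12. It was 0.28, 0.25 and 0.33 for SWEET1, SWEET2 and SWEET3, but 1.27 for SWEET4, 1.37 for SWEET6, 0.95 for SWEET7 and 1.65 for SWEET8. A log2 difference would have had to reach 2.66 for SWEET4, 2.92 for SWEET6, 3.04 for SWEET7 and 3.30 for SWEET8 to be called, against 0.55 for SWEET2 and 0.71 for SWEET3. A fall as large as that of SWEET2 in a clade II gene would not have been called on these arrays.

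SWEET4 (AT3G28007), a hexose transporter known from the vascular tissue of roots and leaves, had signals of 12.4, 16.2 and 20.7 on lib arrays 1 to 3, against 19.1, 26.8 and 2.79 on wild type arrays 1 to 3. The lib arrays lay inside the wild type range. The log2 difference was 0.52 (SE 0.83, 95% interval -1.35 to 2.39, adjusted p = 0.723), and it turned to -0.49 (adjusted p = 0.563) without wild type replicate 3. In the authors' deposited table SWEET4 has a ratio of 1.01, since that ratio is taken between mean linear signals, on which the low array weighs less than on the log2 scale.

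SWEET6 (AT1G66770) had signals of 5.55, 5.01 and 11.9 on lib arrays 1 to 3, against 22.3, 32.8 and 3.13 on wild type arrays 1 to 3. The third wild type array was the lowest of the 6 and the other wild type arrays were the highest. The log2 difference was -0.93 (SE 0.91, 95% interval -2.98 to 1.12, adjusted p = 0.531). Without wild type replicate 3 it was -1.97, still without a call (adjusted p = 0.0796). On the scale of log2(signal + 16), which damps scatter near the floor, it was -0.50.

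SWEET7 (AT4G10850), a clade II member, had signals of 2.34, 8.69 and 1.55 on lib arrays 1 to 3, against 1.93, 1.55 and 2.38 on wild type arrays 1 to 3. One lib array stood above the rest, and the others were close to the floor, a signal of 1. The log2 difference of 0.71 (SE 0.95, 95% interval -1.42 to 2.85, adjusted p = 0.660) rested on lib replicate 2. Without that array it was -0.02 (adjusted p = 0.994).

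SWEET8 (AT5G40260), also called RPG1, is a glucose transporter known for its part in pollen wall formation. Its signal was 21.4, 1.59 and 15.2 on lib arrays 1 to 3, against 16.3, 24.2 and 5.33 on wild type arrays 1 to 3. The groups overlapped, and the low arrays were replicate 2 in lib and replicate 3 in the wild type. The log2 difference was -0.68 (SE 1.03, 95% interval -2.99 to 1.64, adjusted p = 0.706), and it was 0.49 (adjusted p = 0.720) without lib replicate 2.

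SWEET5 (AT5G62850, listed as AtVEX1), known from the vegetative cell of pollen, behaved like the other clade II probe sets in its scatter. Its signal was 9.54, 15.3 and 1 on lib arrays 1 to 3, the last being the floor of the scale, against 22.0, 28.6 and 2.09 on wild type arrays 1 to 3. The log2 difference was -1.06 (SE 1.26, adjusted p = 0.618). Counting it as a member left the number called at 1. Replicate 3 was the lowest wild type array for 4 of the 5 clade II probe sets, SWEET4, SWEET5, SWEET6 and SWEET8, whereas among all 6539 probe sets with a mean log2 signal under 5 it was the lowest for 33.8%.

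**Figure D4:**
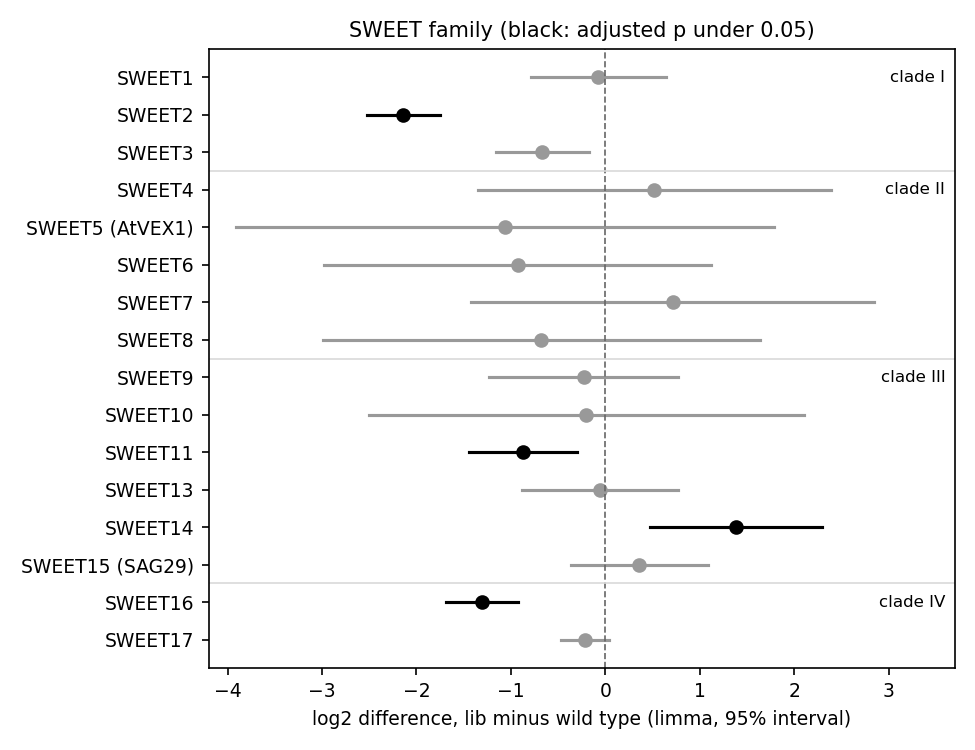
Log2 difference, lib minus wild type, with its 95% interval from limma for each measured SWEET gene, grouped by clade, in black where the adjusted p was under 0.05. SWEET2 lies farthest from 0 at -2.14, and the intervals of the clade II genes each span more than 3 log2 units.

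Among the clade III genes, 1 of 6 measured rose and 1 fell, counts near the shares over all probe sets, of which 10.4% were called higher and 10.3% lower. SWEET14, a sucrose transporter, rose, with a log2 difference of 1.38 (SE 0.40, adjusted p = 0.0389) and signals of 44.9, 43.4 and 44.4 on lib arrays, against 11.4, 18.4 and 23.2 on wild type arrays. SWEET11, which exports sucrose for phloem loading in leaves, fell by 0.87 (SE 0.25, adjusted p = 0.0398), with 1318, 1619 and 698 on lib arrays, against 2018, 2070 and 2181 on wild type arrays. For both genes the groups did not overlap. The call of SWEET14 was lost without lib replicate 1, 2 or 3 or wild type replicate 1 or 2 (adjusted p up to 0.118), and that of SWEET11 without lib replicate 1 or any 1 wild type array (adjusted p up to 0.122) and also when no intensity trend was fitted (adjusted p = 0.154). Without lib replicate 3 the fall of SWEET11 shrank to -0.52 (adjusted p = 0.0183). SAG29 (SWEET15) at 0.36 and SWEET9 at -0.23 did not pass.

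Beyond the SWEET family, the genes of sugar transport and sucrose cleavage were read from lists of named genes. Over these lists together with clades III and IV, 22 of 72 genes had a probe set of their own, of which 1 rose, 6 fell and 15 did not pass. That is 31.8% called, against 20.7% of all probe sets, with a median log2 difference of -0.23, against -0.04 over all probe sets. The share called depends on brightness. A fit restricted to probe sets brighter than the array-wide median, with its own adjustment, called 4585. The fit of all called 4708. The shares over all probe sets, here and for the lists below, were not matched for brightness. They therefore do not show that these lists hold more calls than other probe sets of like brightness. The SUC sucrose transporters and the hexokinases had 0 genes with such a probe set and were not read here. The annotation names no gene for 8730 of the 22746 probe sets, so this does not mean that the array lacks them.

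Of 7 measured sugar transporters of the vacuole and plastid, from a list of 12, 2 fell (28.6%, against 10.3% of all probe sets called lower). TMT1, which loads glucose and sucrose into the vacuole in exchange for protons, had signals of 1280, 1322 and 1257 on lib arrays, against 2839, 2820 and 3105 on wild type arrays. Its groups were well apart, and its log2 difference was -1.18 (SE 0.08, adjusted p = 0.000122). SFP1, of the ERD6-like group of sugar transporters, fell by 0.59 (SE 0.09, adjusted p = 0.00219). TMT2, a close relative of TMT1, stood at -0.32 (adjusted p = 0.0655) and SFP2 at -0.79 (adjusted p = 0.104), and the median of the list was -0.57.

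Both measured genes of the invertase list, from 13, were lower in lib, where 10.3% of all probe sets were. AT1G62660, a vacuolar invertase that splits sucrose into glucose and fructose, fell by 0.96 (SE 0.13, adjusted p = 0.00118), with signals of 2109, 2041 and 1735 on lib arrays, against 3306, 3746 and 4452 on wild type arrays. The gene named cwINV6, whose enzyme is known to act on fructans, fell by 0.99 (SE 0.20, adjusted p = 0.00892). None of the 4 measured STP genes, importers of hexoses at the plasma membrane, passed: STP8 (AT5G26250) stood at -1.09 (adjusted p = 0.0560), STP5 (AT1G34580) at 0.55 (adjusted p = 0.469), STP3 (AT5G61520) at 0.47 (adjusted p = 0.583) and STP10 (AT3G19940) at 0.70 (adjusted p = 0.695). STP8 passed with array weights (adjusted p = 0.0464), on the log2(signal + 16) scale (adjusted p = 0.0268) and without the intensity trend (adjusted p = 0.0215). The single measured gene of sucrose synthesis, ATSPS4F, a sucrose phosphate synthase, stood at 0.56 (adjusted p = 0.453).

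**Figure D5:**
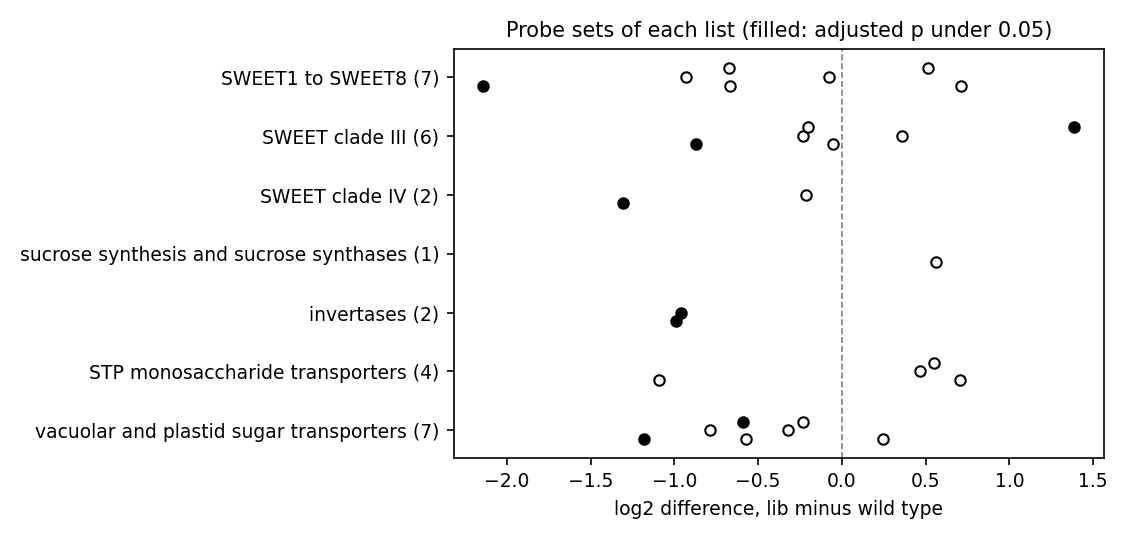
Log2 difference, lib minus wild type, of each measured probe set of the SWEET1 to SWEET8 group and of the other sugar lists, filled where the adjusted p was under 0.05, with the number of probe sets in brackets. The 2 measured genes of the invertase list and 2 of the 7 vacuolar and plastid transporters are among the filled points left of 0. SWEET14 is the filled point right of 0.

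The genes whose signals ran most like those of SWEET2 over the 6 arrays were AT2G37220 (Pearson r = 0.996), AT1G70180 (r = 0.994), AT5G20610 (r = 0.993) and AT3G15450 (r = 0.993), out of 6069 candidates of exactly 1 gene whose mean signal exceeded the array-wide median. AT2G37220 encodes an RNA-binding protein of the chloroplast. These correlations describe 6 arrays in 2 groups, so a shared difference between the genotypes is enough to give a high r. All 4 genes were lower in lib by much less than SWEET2, with log2 differences of -0.59, -0.61, -0.59 and -0.56 in that order.

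The genes beside SWEET2 were looked up by their order in the TAIR10.1 gene table. AT3G14760 and AT3G14780, its direct neighbours, did not pass, at -0.18 (SE 1.11, adjusted p = 0.94) and -0.04 (SE 0.22, adjusted p = 0.93). The interval of AT3G14780, -0.55 to 0.47, lies above that of SWEET2, while AT3G14760 was near the floor on most arrays and its interval of -2.69 to 2.34 includes the fall of SWEET2. At 2 genes' distance AT3G14750 stood at -0.37 (95% interval -0.71 to -0.03, adjusted p = 0.118). At 3 genes' distance AT3G14740 rose by 0.85 (SE 0.14, adjusted p = 0.00337). AT3G14790 and AT3G14810, at these distances on the other side, had no probe set of exactly 1 gene, so that side was not read there.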

How the data were processed

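The authors deposited log2 signals of 6 Affymetrix ATH1 arrays, which were computed by MAS5 per the submitters' processing notes, with no version given there. They were used as deposited. The authors also deposited a p-value and a linear ratio of lib to wild type for each probe set. All 22746 deposited p-values equal a recomputed unadjusted unequal-variance comparison within 1e-06, and all 22746 deposited ratios equal the ratio of mean linear signals within a relative 1e-06. Of the 22746 probe sets, 13513 had 1 gene in the platform annotation, 503 several and 8730 none, with symbols updated through the TAIR10.1 gene table.

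The comparison of lib with the wild type used limma (version 3.58.1, under R version 4.3.3) on every probe set, with lmFit and a two-sided eBayes test with an intensity trend, adjusted by the Benjamini-Hochberg method. The fit was also run on simulated arrays with normal scatter and no floor, a check that does not cover probe sets near the floor of the scale. The small number of arrays, 3 in each group, sets the precision. Single values were tested by exact permutation in scipy 1.17.1. The members, lists and tests were chosen with earlier results of these data known. All members were named, with the 4 genes of smallest p in each other list and the 4 genes most correlated with SWEET2; genes beside SWEET2 were taken by position. Alternatives were other variance models and scalings, log2(signal + 16), a filter on dim probe sets, array weights, a replicate block, a stricter threshold of 0.01 and each array left out. Detection calls, sequences and OMR1 were not used here.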

Additional observations from a re-analysis of the deposited data

How the results depend on the processing

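Some alternatives change only the variance model, the block, the probe sets tested or the threshold, so they cannot move the log2 difference. SWEET2 kept its direction in the others, with log2 differences of -2.32 to -2.03, also over the arrays left out in turn. Its call held in 14 of the 15 alternatives. The exception was the unequal-variance comparison, with the same -2.14 and no call; it also gave 0 called of the 7 members, 0 of the other sugar genes and 66 of all probe sets, where the reported counts are 1, 7 and 4708. The count over all probe sets was 2257 at the stricter threshold of 0.01, 2383 with no intensity trend, 2705 without lib replicate 1 and 2705 to 3747 over the arrays left out, where 5 to 6 of the other sugar genes were called. The members called were 2, SWEET2 and SWEET3, when the fit was restricted to probe sets brighter than the array-wide median, a fit that tests fewer probe sets and leaves out SWEET1 and clade II.

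With the replicate number as a block, 2 members were called, SWEET3 among them (adjusted p = 0.0326), SWEET14 lost its call (adjusted p = 0.0786), and 3442 probe sets were called in all. Across all probe sets the deviations of samples of the same number had r of 0.013, -0.019 and -0.025. For lib and wild type samples of different numbers r ran from -0.015 to 0.034. The median SD within a genotype was 1.12 at a mean log2 signal under 5, against 0.16 above the array-wide median. These r values therefore rest largely on dim probe sets. Beyond these r values, whether samples of the same number share more than the number was not tested.

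SWEET1 changed sign with array weights (0.075) and with quantile normalization (0.011), and it ran from -0.25 to 0.049 with single arrays left out. With single arrays left out SWEET4 ran from -0.49 to 1.14, SWEET7 from -0.02 to 1.23, SWEET8 from -1.38 to 0.49, SWEET5 from -2.25 to 0.14, AT5G61520 from -0.018 to 0.87 and AT3G19940 from -0.28 to 1.34, and none of these was called in any setting. The cause of these moves was not tested. For the clade II genes the scatter near the floor of the scale limits what could be called.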
